A study of Petromyzon marinus with 21 samples.

Results

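Whole embryos of the sea lamprey, the jawless fish Petromyzon marinus, were compared at 5 days after fertilization (D5) with those at 4 days (D4). The comparison used 6 of the 21 nCounter lanes of the series, 3 for each stage, chosen by the stage in the column names. On the nCounter a barcoded probe binds each chosen transcript and the barcodes are counted without amplification. Per the labels, all embryos were fertilized eggs raised in dilute Holtfreter's solution at a single temperature, with no treatment, strain or sex given. The labels give the 3 samples of a stage as biological replicates and do not state how many embryos went into one. The series follows this probe set through embryonic development and, for contrast, in the adult male gonad.

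The probe set holds 43 target transcripts, of which 24 carry no annotation in the file, and 6 reference transcripts, so 49 transcripts were described. Lamprey embryos of these ages are around gastrulation, when the germ layers form, and already transcribe their own genome in place of the egg's stored RNA. Ribosomal protein and elongation factor transcripts supply the translation machinery that a growing embryo needs. PIWI proteins bind small RNAs and silence transposons in animal germ cells, and their messages are often stored in eggs. In this species, cells that will form the body lose some germline DNA early in development.

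Per the column names, all 6 lanes were read in 1 run, and the earlier stages and testes in others. Their names carry a second mark, called a tag here. It is 1 in D5-1 and D4-1, 5-12 in D5-5-12-1, D5-5-12-2 and D4-5-12, and DZ in D4-DZ. Only D5-1 and D4-1 could be matched to a numbered sample, and there the mark is the replicate number. The marks 5-12 and DZ are not explained, and no label states that lanes of one tag belong together. Target counts summed to 3172, 5986 and 6281 in the D5 lanes D5-1, D5-5-12-1 and D5-5-12-2, and to 1769, 2499 and 8847 in the D4 lanes D4-1, D4-DZ and D4-5-12. A probe was taken as above background where it exceeded the mean + 2 SD of the lane's 8 negative controls, which came to 14.3 to 19.9 raw counts at D5 and 10.7 to 23.2 at D4. At such counts, counting error alone is a large part of a low value. Over the target and reference probes with at least 10 counts between them, D5-5-12-1 and D5-5-12-2 differed by a chi-square of 2.47 per degree of freedom. That was the lowest of the 15 lane pairs, and above the 1 that sampling noise gives. The panel holds no set of defining markers of embryonic tissues, so the whole-embryo label could not be checked against them.

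Values are given as scaled counts: raw counts divided by a lane factor from EF1A_A and HCFC-1, the reference probes above background in all 18 embryo lanes of the series. The other reference probes are RPS9, Piwi-1, Piwi-2 and EF1A_B. RPS9 was above background in 17 of the 18 lanes and in all 6 of D5 and D4, and no scaling used it. EF1A_A detects elongation factor 1 alpha, which carries aminoacyl-tRNA to the ribosome, and HCFC-1 is a chromatin-associated cofactor of transcription. The pair did not keep a fixed ratio. HCFC-1 counts divided by EF1A_A counts were 0.408, 0.124 and 0.118 in D5-1, D5-5-12-1 and D5-5-12-2, against 0.162, 0.111 and 0.0786 in D4-1, D4-DZ and D4-5-12. D5-1 was the highest in this ratio, and the other 5 lanes ran from 0.0786 to 0.162. Some of the results that rest on the scaling are therefore also given with each reference alone. Scaled to the positive controls only, EF1A_A averaged 351 ± 68.0 at D5 and 390 ± 69.7 at D4, and HCFC-1 averaged 69.2 ± 38.9 at D5 and 44.3 ± 12.2 at D4 (SD, n = 3 each). The stages overlapped for both (exact permutation test, two-sided, p = 0.5 each), but 3 lanes against 3 cannot give a p under 0.1, so this does not show that either reference was stable.

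Most of the panel followed the tag of a lane rather than its stage. In 34 of the 41 tested probes, both tag 1 lanes were below every one of the other 4 lanes. In the median of the 38 tested targets, the mean scaled count of those 4 lanes was 8.32 times that of the tag 1 lanes. Most targets were under background in the tag 1 lanes. With those lanes taken as no lower than their background, the median ratio was 3.56. The number of targets above background divided the same way, with 10, 38 and 40 of 43 in D5-1, D5-5-12-1 and D5-5-12-2, against 11, 36 and 38 in D4-1, D4-DZ and D4-5-12. Of the 43 targets, 23 were above background in exactly the 4 lanes outside tag 1, and 3 were above it in no lane. The panel level, averaged from log2(scaled count + 1) over 38 tested targets, was 3.49, 6.53 and 6.50 in the D5 lanes and 4.03, 5.79 and 7.03 in the D4 lanes. Its stage means were 5.51 ± 1.75 at D5 and 5.62 ± 1.51 at D4 (SD, n = 3 each), a difference of −0.11 (exact permutation test, two-sided, p = 1). In bulk samples, fewer cells of a type and less RNA per cell cannot be told apart.

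**Figure D1:**
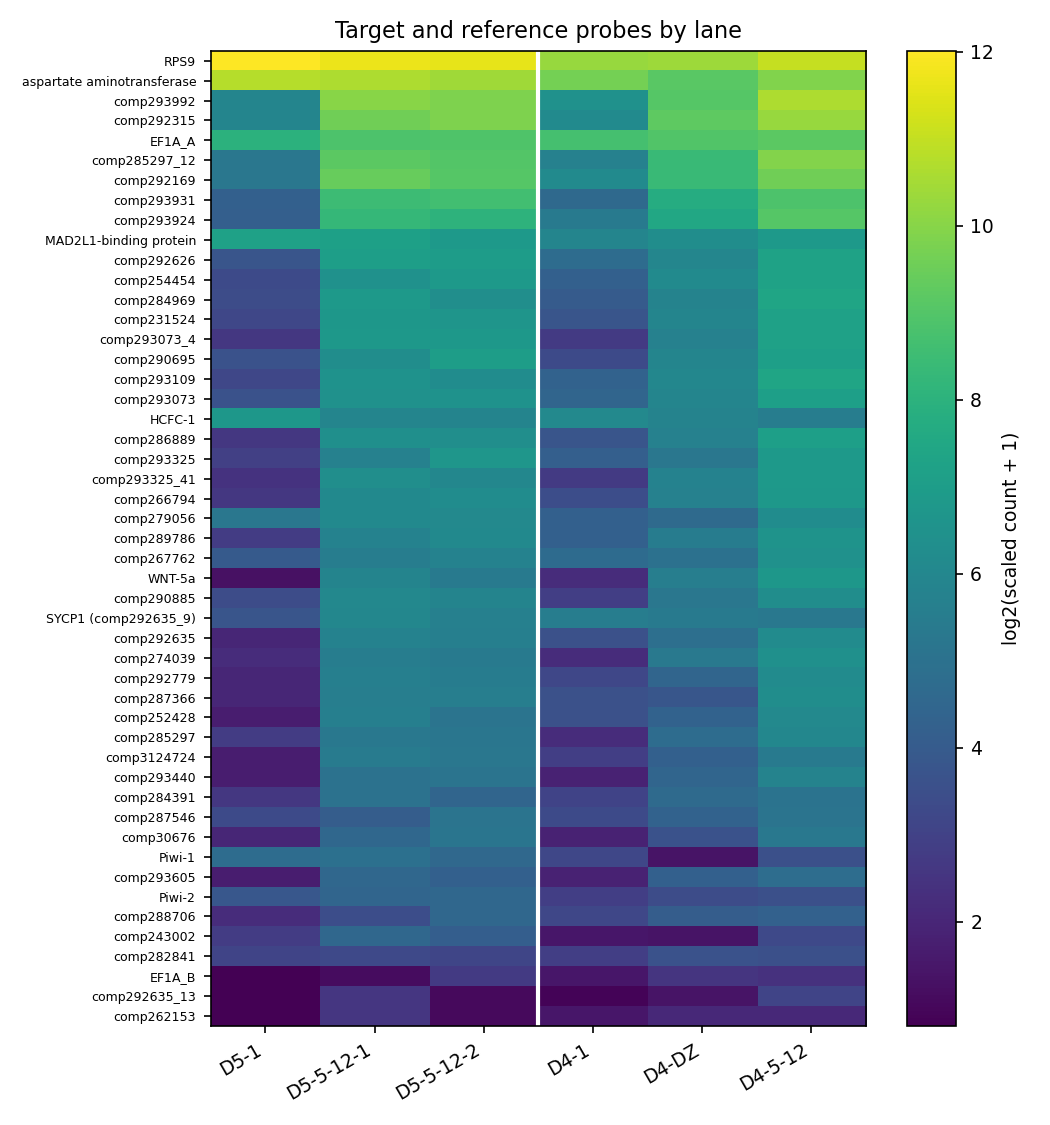
Heat map of log2(scaled count + 1) for the 43 target and 6 reference probes (rows, ordered by mean) in the 3 D5 lanes (left) and the 3 D4 lanes (right of the white line). The tag 1 lanes D5-1 and D4-1 are dark over most rows. Under this scaling every D5 lane exceeds every D4 lane for RPS9, aspartate aminotransferase, the MAD2L1-binding protein and both Piwi probes. The MAD2L1-binding protein does so by less than 1 scaled count, and the Piwi probes are near background.

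Across the 41 tested probes, 0 (0%) passed an adjusted p of 0.05 for D5 over D4 (edgeR's quasi-likelihood test over the 18 embryo lanes). Without adjustment, 3 probes (7.32% of the 41) had p under 0.05, all higher at D5: RPS9, Piwi-1 and aspartate aminotransferase. DESeq2 and limma on scaled counts called 0 as well, with 3 and 1 at an unadjusted p under 0.05. Every D5 lane lay above every D4 lane for 5 probes (12.2% of the 41): RPS9, aspartate aminotransferase, the MAD2L1-binding protein, Piwi-1 and Piwi-2. The reverse was seen for 0 (0%). RPS9 and the Piwi probes are of the reference class, and the rest of the 5 are targets. These 5 are described next, then the transcripts that followed the tags.

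RPS9, which encodes a small-subunit ribosomal protein, was above background in every lane. It had 4123, 3292 and 3085 scaled counts in D5-1, D5-5-12-1 and D5-5-12-2, against 1262, 1336 and 2089 in D4-1, D4-DZ and D4-5-12. The lowest D5 lane was well above the highest D4 lane, and D5-1 was the highest of all 6. Means were 3500 ± 549 at D5 and 1562 ± 458 at D4 (SD, n = 3 each), with an edgeR log2 fold change of 1.16 (SE 0.53, adjusted p = 0.546). Fitted on the 6 lanes alone, the same fold change passed in edgeR (SE 0.35, adjusted p = 0.0459). With only the 4 lanes outside tag 1 it was 0.90 and did not pass (SE 0.46, adjusted p = 0.736 in edgeR). The call thus depended on which lanes were fitted. The count of RPS9 for each count of EF1A_A, a ratio that needs no scaling of lanes, was 15.9, 7.02 and 6.43 in the D5 lanes and 3.08, 2.69 and 3.55 in the D4 lanes. On the log2 scale this ratio averaged 3.16 ± 0.72 at D5 and 1.63 ± 0.20 at D4, a difference of 1.54 (exact permutation test, two-sided), for which p was 0.1, the lowest value open to 3 lanes against 3. With HCFC-1 in the denominator the ratios were 39.1, 56.7 and 54.3 at D5 and 19, 24.3 and 45.1 at D4. D5-1 was then below D4-5-12, and the groups overlapped (exact permutation test on the log2 ratios, two-sided, p = 0.2).

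Aspartate aminotransferase (comp293586), an enzyme that moves the amino group between aspartate and glutamate, was likewise above background in every lane. Its scaled counts were 1754, 1579 and 1368 in D5-1, D5-5-12-1 and D5-5-12-2, against 816, 569 and 959 in D4-1, D4-DZ and D4-5-12. No D5 lane reached down into the D4 range, and the D5 mean of 1567 ± 193 was 2.01 times the D4 mean of 781 ± 197 (SD, n = 3 each; edgeR log2 fold change 1.00, SE 0.44, adjusted p = 0.546). RPS9 counts divided by aspartate aminotransferase counts were 2.35, 2.08 and 2.25 at D5 and 1.55, 2.35 and 2.18 at D4. This ratio overlapped between the stages (exact permutation test, two-sided, p = 0.6). With most other targets low in the tag 1 lanes, the enzyme made up 74.0% of all target counts in D5-1, 21.4% in D5-5-12-1 and 19.6% in D5-5-12-2, against 50.7% in D4-1, 14.1% in D4-DZ and 10.1% in D4-5-12.

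A MAD2L1-binding protein probe (comp280581, a protein that helps switch off the spindle checkpoint in mammalian cells) separated the stages by the narrowest margin. It had 146, 143 and 111.3 scaled counts at D5 and 58.2, 77.5 and 110.8 at D4. The lanes D5-5-12-2 and D4-5-12 were separated by less than 1 scaled count, within the counting error of either. Means were 134 ± 19.4 at D5 and 82.2 ± 26.6 at D4 (SD, n = 3 each), with an edgeR log2 fold change of 0.70 (SE 0.84, adjusted p = 0.982).

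Both Piwi probes were near background. Piwi-1 (PMZ_0008974) had 26.2, 29.6 and 23.4 scaled counts (35, 24 and 21 raw counts) in D5-1, D5-5-12-1 and D5-5-12-2, against 8.19, 1.62 and 10.8 (9, 1 and 10 raw) in D4-1, D4-DZ and D4-5-12. All 3 D5 lanes were above their background and none of the D4 lanes was. Its means were 26.4 ± 3.14 at D5 and 6.85 ± 4.72 at D4 (SD, n = 3 each), and the edgeR log2 fold change was 1.90 (SE 0.87, adjusted p = 0.546), fitted to D4 counts that were all under background. As a bound with errors left out, Piwi-1 at D5 averaged 1.37 times the mean D4 background of 19.3 scaled counts. Its raw counts were 10.1%, 6.32% and 4.87% of those of EF1A_A in the D5 lanes, against 2.00%, 0.326% and 1.83% in the D4 lanes (exact permutation test, two-sided, p = 0.1). The other Piwi probe was lower still in counts. Piwi-2 (PMZ_0008779) had 13.4, 21.0 and 22.3 scaled counts (18, 17 and 20 raw counts) at D5, against 6.37, 9.69 and 10.8 (7, 6 and 10 raw) at D4. Only D5-5-12-2 was above background, so no fold is given from its means of 18.9 ± 4.76 at D5 and 8.94 ± 2.29 at D4 (SD, n = 3 each). It did not pass in edgeR (adjusted p = 0.982).

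**Figure D2:**
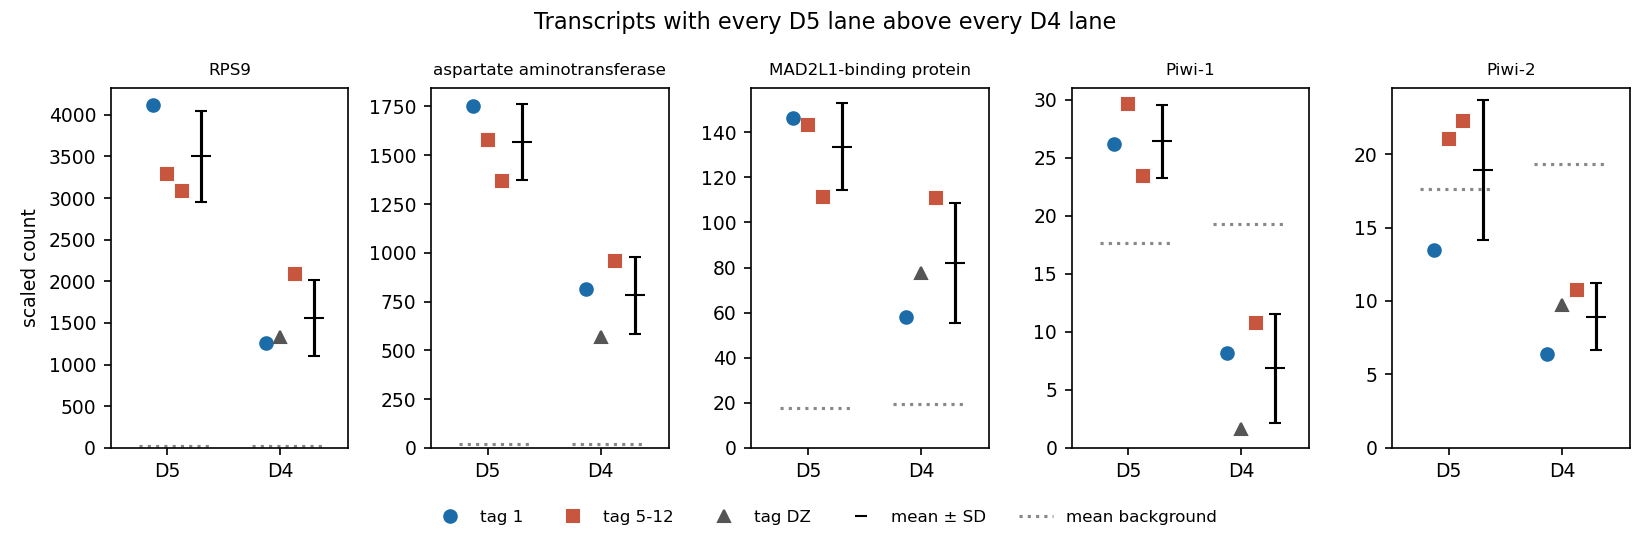
Scaled counts of the 5 transcripts in each D5 lane (left in each panel) and D4 lane (right), with the mean and SD (n = 3) beside the points and the mean background of the stage as a dotted line. Each vertical axis starts at 0. All D5 points lie above all D4 points, by the smallest margin for the MAD2L1-binding protein, and D4 points of both Piwi probes lie under the background.

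Since tags are spread unevenly over the stages, the stages were also set against each other within a tag. That lanes of one tag belong together is an assumption, since no label states it. D5-1 minus D4-1 gives 1 difference for each probe on the log2(scaled count + 1) scale, and the mean of the D5-5-12 lanes minus D4-5-12 gives another. The 5 transcripts named above are higher at D5 within both tags by the way they were picked, so only the sizes are given. RPS9 differed by 1.71 within tag 1 and 0.61 within tag 5-12, aspartate aminotransferase by 1.10 and 0.62, and the MAD2L1-binding protein by 1.32 and 0.19. No size is given for the Piwi probes, whose D4 lanes were all under background. Of the other 36 tested probes, 29 were lower at D5 within both tags, 6 were higher only within tag 1, and 1 (comp292635_9, a synaptonemal complex protein 1 probe) was higher only within tag 5-12. The median probe was lower at D5 within both tags, with differences of −0.58 within tag 1 and −0.56 within tag 5-12. The panel level gave −0.54 and −0.51. All these counts and differences use the scaling by EF1A_A and HCFC-1 together, and their signs under other scalings were not computed. The lane factors of D5-1 and D4-1 were 1.34 and 1.10 in it, against 0.70 and 0.91 with EF1A_A alone. D5-1 was thus scaled down relative to D4-1 in the first and up in the second. Only 10 of 43 targets in D5-1 and 11 in D4-1 were above background. Most differences within tag 1 are thus between counts under background. The scaled background was 14.9 in D5-1 and 21.1 in D4-1, and its part in those differences was not tested.

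**Figure D3:**
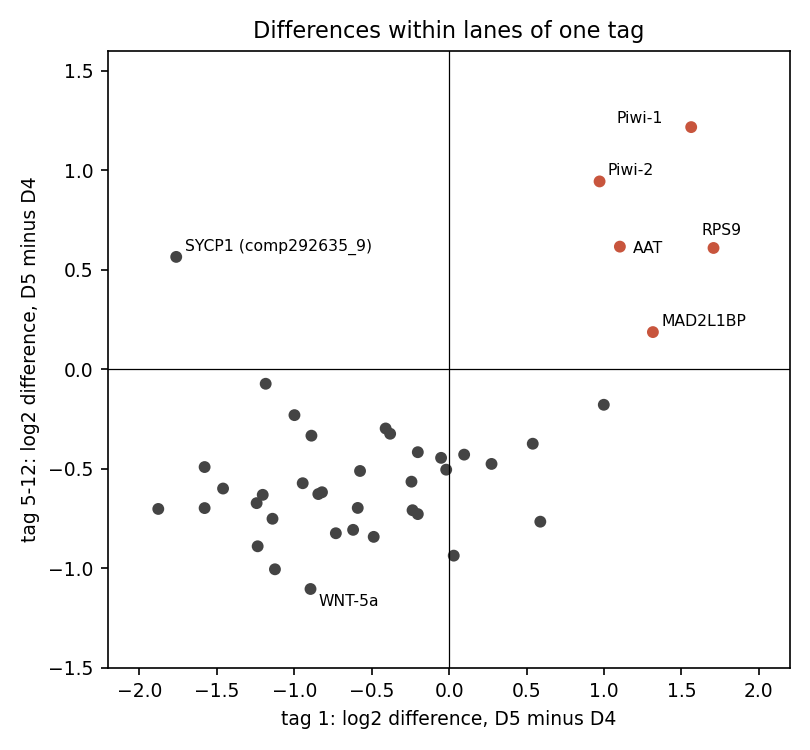
Differences of D5 minus D4 in log2(scaled count + 1) for each of the 41 tested probes, within tag 1 (horizontal axis) and within tag 5-12 (vertical axis). Counts are scaled by EF1A_A and HCFC-1 together. The 5 transcripts of which all D5 lanes were above all D4 lanes (orange-red) lie in the upper right, 29 probes lie in the lower left, and AAT and MAD2L1BP stand for aspartate aminotransferase and the MAD2L1-binding protein. Most differences within tag 1 are between counts under background. The Piwi points use D4 counts under background.

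With the tag as a block on the 6 lanes, edgeR called 4 probes higher at D5 (9.76% of the 41) and 19 lower (46.3%). In this fit D4-DZ has a tag of its own and drops out of the stage difference, which then rests on the 5 lanes of tags 1 and 5-12. Only D5-5-12-1 and D5-5-12-2 share both a stage and a tag. The fit takes D5-1 and D4-1 to belong together, although they share only a replicate number. For most of the probes called lower, both tag 1 lanes were under background. Called higher were aspartate aminotransferase (log2 fold change 0.83, SE 0.26, adjusted p = 0.00947), RPS9 (1.07, SE 0.37, adjusted p = 0.0177), Piwi-1 (adjusted p = 0.000234) and Piwi-2 (adjusted p = 0.0198). For both Piwi probes edgeR set p to the floor that counting error alone gives, so their p-values carry no measure of the spread between lanes, and their D4 lanes were all under background. The MAD2L1-binding protein did not pass under the main scaling (0.67, SE 0.43, adjusted p = 0.172 in edgeR). With D5-5-12-1 and D5-5-12-2 summed to 1 sample, the blocked edgeR fit called neither RPS9 (adjusted p = 0.220) nor aspartate aminotransferase (0.133). No samples then share both a stage and a tag, so neither calls nor misses rest on replication within a tag. The merged fit called 5 probes lower: comp284969, comp286889, comp293073, comp293109 and comp293924. All but comp293924 had both tag 1 lanes under background. The Piwi probes were its 2 higher calls, again with p at the counting floor, which the merging of lanes leaves as it was.

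The replicate numbers of the authors' deposited values, which carry a number for each sample, gave a second blocked fit. That samples of the same number pair was read from these same values, and only number 1 matched itself best at both stages. The p-values of this fit are therefore only descriptive. With the number as a block on these 6 samples, limma called 2 of 41 probes higher at D5 (4.88%) and 0 lower. They were Piwi-1 (log2 difference 2.65, SE 0.52, adjusted p = 9.02e-05) and Piwi-2 (1.84, SE 0.52, adjusted p = 0.0139). RPS9 and aspartate aminotransferase did not pass in it, at 1.54 (SE 0.52, adjusted p = 0.0555 in limma) and 1.38 (SE 0.52, adjusted p = 0.0986). The SE was the same for all 41 probes, since limma pooled the spread of all of them in full. Without the block limma called 0 on the same 6 samples, with adjusted p = 0.893 for Piwi-1. The deposited values have the background taken off and a floor of 1, and the D4 values of both Piwi probes there lie close to that floor.

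The 19 probes lower at D5 in the fit with the tag as a block depended on the scaling. That number was 30 with HCFC-1 alone and 8 with positive controls only, and 0 with EF1A_A alone, TMM, DESeq2's size factors or the sum of the target probes. The number of higher calls lay between 2 and 6 under the same scalings. Piwi-1 was called higher in edgeR under all of these but the target sum, where its adjusted p was 0.0519. RPS9 was called with 4 of the 6 and missed with positive controls only and with EF1A_A alone (adjusted p = 0.0915 and 0.0884 in edgeR). Aspartate aminotransferase missed with HCFC-1 alone (adjusted p = 0.0637 in edgeR) and passed with the other 5. Piwi-2 missed with HCFC-1 alone and with the target sum (adjusted p = 0.141 and 0.0952 in edgeR). The MAD2L1-binding protein was called higher under TMM (log2 fold change 1.08, adjusted p = 0.0252 in edgeR). DESeq2's size factors called it too (1.43, adjusted p = 0.000132 in edgeR). It missed under each of the others, at an adjusted p of 0.0728 or above in edgeR.

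**Figure D4:**
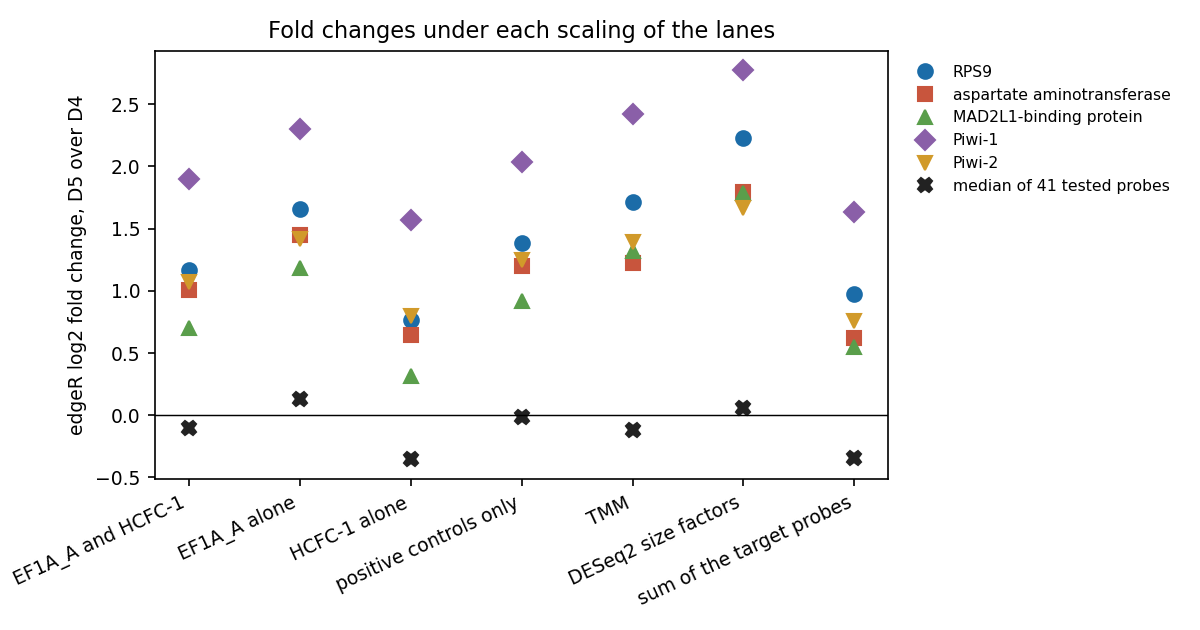
The edgeR log2 fold change of D5 over D4, with no block, for the 5 transcripts and for the median of the 41 tested probes under 7 scalings of the lanes. The 5 transcripts, picked under the first scaling, lie between 0.31 and 2.77 and the median between −0.35 and 0.13. The Piwi points use D4 counts under background.

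Whether the lanes of the 5 transcripts overlapped between stages depended on the scaling. All 5 also separated the stages with positive controls only and with EF1A_A alone, where the unannotated comp279056 joined them. With HCFC-1 alone only Piwi-1 did, and with TMM, DESeq2's size factors or the sum of the target probes none of the 5 did. Every D5 lane was below every D4 lane for the cordon-bleu probe comp266794 with TMM, for comp293109 with DESeq2's size factors, and for comp289786 and comp293073 with the target sum. DESeq2's size factors also put comp290885 higher in every D5 lane.

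The meiosis and germ line group held 6 probes, of which 5 were tested. Synaptonemal complex protein 1 (SYCP1) ties paired chromosomes together in meiosis. Its probe comp292635_9 had 12.7, 63.0 and 50.1 scaled counts in D5-1, D5-5-12-1 and D5-5-12-2, against 45.5, 40.4 and 37.7 in D4-1, D4-DZ and D4-5-12. The D4 lanes lay close together and D5-1 was the 1 low lane (edgeR log2 fold change 0.02, SE 0.94, adjusted p = 0.982). The SYCP1 probe comp292635 followed the tags, with 2.99, 53.1 and 49.0 at D5 and 10.9, 29.1 and 72.1 at D4. A further SYCP1 probe, comp288706, was above background in 1 of the 6 lanes and was not tested. HFM1 (comp293440), a helicase of meiotic crossing over, had 2.24, 32.1 and 33.4 scaled counts at D5 and 2.73, 21.0 and 54.9 at D4, with both tag 1 lanes below background. Every D5 lane was above every D4 lane for 2 of the 5 tested, the Piwi pair, beside 12.2% of all 41, and 5 of the 6 lanes of Piwi-2 were under background. Myosin-7B (comp292635_13), a myosin heavy chain of muscle, was below background in all 6 lanes.

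The cell cycle and chromatin group held 3 probes, of which 0 passed without a block, as for all 41 (0%). Protein phosphatase 1D (comp267762), which turns off the p53 response in mammals, had 14.9, 45.7 and 53.4 scaled counts at D5 and 25.5, 30.7 and 88.2 at D4. Although above background in all 6 lanes, its stages overlapped (edgeR log2 fold change −0.34, SE 1.00, adjusted p = 0.982). It was among the 19 lower calls with the tag as a block (−0.81, SE 0.29, edgeR adjusted p = 0.0198). With the D5-5-12 lanes as 1 sample it was not called (edgeR adjusted p = 0.277). A trinucleotide repeat-containing probe (comp292626), annotated as chromatin binding, had 12.7, 133 and 127 at D5 and 26.4, 61.4 and 153 at D4.

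Signalling and adhesion were represented by 2 probes. WNT-5a (comp249676), a secreted ligand that directs cell movement and polarity in vertebrate embryos, had the lowest fold change of the tested panel. It had 1.49, 56.8 and 42.3 scaled counts in D5-1, D5-5-12-1 and D5-5-12-2, against 3.64, 46.8 and 107 in D4-1, D4-DZ and D4-5-12. Both tag 1 lanes were below background, and D4-5-12 was the highest lane (edgeR log2 fold change −0.65, SE 1.28, adjusted p = 0.982). With the tag as a block it was called lower at D5 (−1.12, SE 0.33, edgeR adjusted p = 0.00726), a call that was not made with EF1A_A alone as the scale. Nor was it made with the D5-5-12 lanes as 1 sample (edgeR adjusted p = 0.254). Protocadherin Fat 3 (comp284391), a large cell adhesion protein, had 5.23, 32.1 and 21.2 at D5 and 7.28, 24.2 and 32.3 at D4.

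The probes annotated as apoptosis inhibitors or as cordon-bleu also followed the tags. Baculoviral IAP repeat proteins block caspases, and the probe comp285297_12 had 37.4, 573 and 515 scaled counts at D5 and 52.8, 341 and 975 at D4. It was above background throughout (edgeR log2 fold change −0.28, SE 1.25, adjusted p = 0.982) and called lower with the tag as a block (−0.73, SE 0.19, edgeR adjusted p = 0.0021). With the D5-5-12 lanes as 1 sample it just missed (edgeR adjusted p = 0.0506). The second probe of that annotation, comp285297, had 5.98, 38.3 and 35.6 at D5 and 3.64, 25.8 and 63.5 at D4. Cordon-bleu, an actin nucleator in vertebrates that the file lists as an apoptosis inhibitor, was read by comp266794, with 5.23, 67.9 and 74.6 at D5 and 10.01, 51.7 and 109.8 at D4. Both tag 1 lanes were under background. This probe was called lower with the tag as a block (edgeR adjusted p = 0.0310), but not with the D5-5-12 lanes as 1 sample (0.277). The other cordon-bleu probe, comp287546, stayed near background, between 8.97 and 33.4 at D5 and between 9.10 and 33.4 at D4.

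Hydroxylysine kinase (comp293109), an enzyme of amino acid breakdown, was the metabolic probe beside aspartate aminotransferase and did not share its pattern. It had 8.22, 90.2 and 75.7 scaled counts at D5 and 19.1, 63.0 and 166.8 at D4 (edgeR log2 fold change −0.52, SE 1.13, adjusted p = 0.982). It differed by −1.12 within tag 1 and −1.005 within tag 5-12 on the log2 scale. Both tag 1 lanes were under background, with 11 raw counts in D5-1 and 21 in D4-1. With the tag as a block it had the lowest adjusted p of the 41 in edgeR (−1.05, SE 0.21, adjusted p = 0.000186). That fit made no lower call with EF1A_A alone, TMM, DESeq2's size factors or the target sum as the scale. Neurofascin (comp293325), which acts in neurite outgrowth, had 6.72, 51.9 and 101.3 at D5 and 17.3, 37.2 and 116.2 at D4. The X-linked retinitis pigmentosa GTPase regulator (comp287366), a protein of the cilium, had 2.99, 46.9 and 47.9 at D5 and 10.9, 12.9 and 77.5 at D4. A leucine-rich repeat probe (comp292779) had 2.99, 49.4 and 44.5 at D5 and 8.19, 21.0 and 73.2 at D4. Neurofascin and the GTPase regulator were called lower with the tag as a block (edgeR adjusted p = 0.0308 and 0.0309). Neither was called with the D5-5-12 lanes as 1 sample (edgeR adjusted p = 0.137 and 0.305). Their tag 1 lanes were under background.

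**Figure D5:**
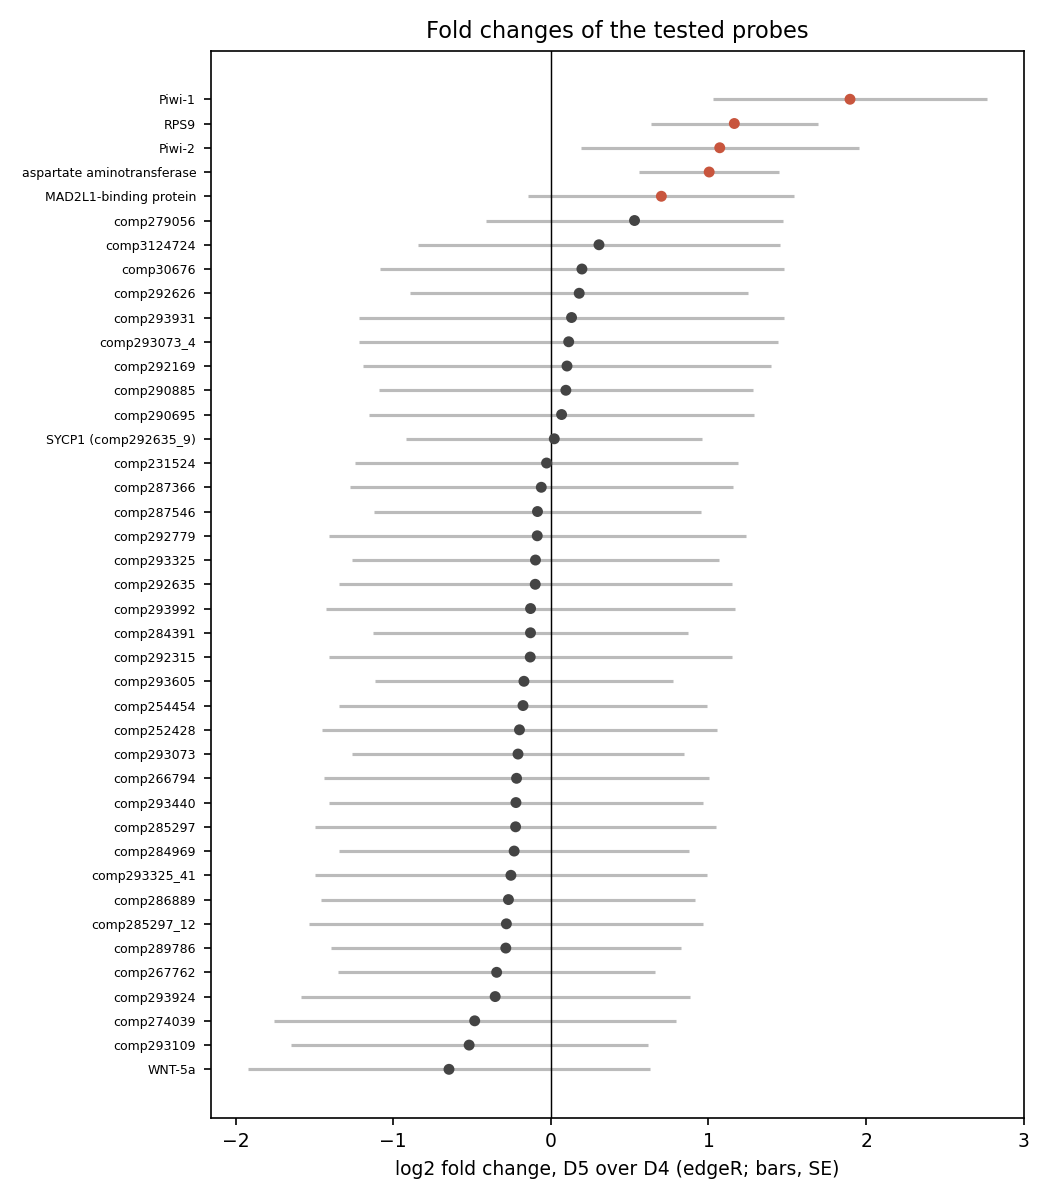
The edgeR log2 fold change of D5 over D4 for each of the 41 tested probes, ordered by size, with bars of 1 SE. The 5 transcripts of which all D5 lanes were above all D4 lanes are in orange-red and form the top of the plot, from 0.70 to 1.90, and the other 36 lie between −0.65 and 0.53. The Piwi values are fitted to D4 counts under background.

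Of the 24 transcripts without an annotation, 21 were tested and 0 passed without a block, as for all 41 (0%), with a median log2 fold change of −0.13 against −0.10 over all 41. Their fold changes ran from −0.48 for comp274039 to 0.53 for comp279056. comp274039 had 3.74, 45.7 and 41.2 scaled counts in D5-1, D5-5-12-1 and D5-5-12-2, against 3.64, 38.8 and 83.9 in D4-1, D4-DZ and D4-5-12 (edgeR log2 fold change −0.48, SE 1.28, adjusted p = 0.982). comp279056 was less split by the tags than most, with 37.4, 69.2 and 65.7 at D5 and 18.2, 24.2 and 76.4 at D4. The stages overlapped through D4-5-12 alone, and its edgeR log2 fold change was 0.53 (SE 0.94, adjusted p = 0.982). The 14 tested ones not named here or in the next paragraphs lay between −0.29 for comp289786 and 0.31 for comp3124724. With the tag as a block, 12 of the 21 were called lower and 0 higher, beside 46.3% of all 41 called lower.

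Counts above background in all 6 lanes were found for 5 unannotated probes. comp293992 had 58.3, 1045 and 917 scaled counts in D5-1, D5-5-12-1 and D5-5-12-2, against 88.2, 533 and 1587 in D4-1, D4-DZ and D4-5-12. comp292315 had 59.0, 767 and 929.5 at D5 and 70.0, 603 and 1249 at D4. comp292169 had 37.4, 674 and 531 at D5 and 70.0, 333 and 754 at D4. In each of these the lanes of a stage spanned a far wider range than the stage means differed by.

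The remaining pair was split in the same way. comp293931 had 17.9, 361 and 396 scaled counts at D5 and 23.6, 210.0 and 473 at D4. comp293924 had 17.2, 309 and 262 at D5 and 41.8, 181 and 527 at D4. The edgeR log2 fold changes of the 5 probes were −0.13 (SE 1.30), −0.13 (SE 1.28), 0.10 (SE 1.30), 0.13 (SE 1.35) and −0.35 (SE 1.23) in the order given, each with adjusted p = 0.982. With the tag as a block, comp293992, comp292169 and comp293924 were called lower (edgeR adjusted p = 0.0123, 0.0219 and 0.000316). With the D5-5-12 lanes as 1 sample, only comp293924 stayed called (edgeR adjusted p = 0.0380).

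Another 8 of the 49 transcripts were not tested. EF1A_A and HCFC-1 set the scale. EF1A_B, comp262153, comp282841 and myosin-7B were below background in all 6 lanes, and comp288706 was above it in 1. The unannotated comp243002 had 5.98, 22.2 and 16.7 scaled counts at D5, and 1.82, 1.62 and 8.61 at D4, with no D4 lane above background. It was above background in D5-5-12-1 and D5-5-12-2, but barely, with 18 and 15 raw counts against cutoffs of 17.9 and 14.3.

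For the median target, the lanes outside tag 1 had higher counts relative to testes, which were read in another run. As a percentage of the mean raw count in testes, the median target had 0.142%, 1.08% and 1.16% in D5-1, D5-5-12-1 and D5-5-12-2, against 0.253%, 0.483% and 1.71% in D4-1, D4-DZ and D4-5-12. Across the 43 targets, Pearson's r between log2 counts of a lane and of testes was 0.316, 0.674 and 0.687 in the D5 lanes and 0.400, 0.725 and 0.807 in the D4 lanes, which describes these lanes only, since the probes share a lane and each probe its own efficiency. Relative to testes, RPS9 and aspartate aminotransferase were far above the median target. RPS9 had 457%, 221% and 229% of its testes count at D5 and 115%, 68.4% and 161% at D4. Aspartate aminotransferase had 282%, 154% and 148% at D5 and 108%, 42.3% and 107% at D4, and Piwi-1 had 6.31%, 4.32% and 3.78% at D5 and 1.62%, 0.180% and 1.80% at D4. These percentages were not scaled for the amount of RNA in a lane, and what part the RNA input of a lane has in the stage differences was not tested.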

How the data were processed

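RNA was measured on the nCounter in 21 lanes. The authors deposited raw barcode counts for each probe and lane, whole numbers of 1 or more, as the file headers and values show. They also deposited normalized signal values with the background taken off, EF1A_A nearly equal in all embryo samples and a floor of 1; how they were made is not stated in the sources used here. Of the 6 D5 and D4 columns of raw counts, 4 name a stage only and were used as replicates with no number.

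A probe was tested if above background (mean + 2 SD of the 8 negative controls) in 3 or more of the 18 embryo lanes (41 probes). Lane factors were geometric means of EF1A_A and HCFC-1, divided by their mean over the embryo lanes. The main test was edgeR's robust quasi-likelihood fit (version 4.0.16, R 4.3.3) of stage over 18 lanes, with Benjamini-Hochberg adjustment over the 41 probes, threshold 0.05, two-sided. A standard error is the fold change over the square root of F. limma 3.58.1 (pseudocount 1) and DESeq2 1.42.0 were alternatives. Where all lanes of a stage were under background, a bound on the fold uses the mean background of that stage.

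In the deposited signal values, deviations from the stage means of samples with the same number correlated at 0.735, 0.727 and 0.400 over the 41 probes for numbers 1, 2 and 3. Numbers were therefore taken to pair these samples, from the values and not from the labels. The pairing is not established: D5 replicate 3 correlated more with D4 replicate 2 (0.778), and D4 replicate 3 more with D5 replicate 2 (0.435). D4 replicate 2 also correlated more with D5 replicate 3 than with D5 replicate 2. Deviations within a stage sum to 0, so these correlations depend on each other. With no statement of separate clutches, p-values measure the spread between these samples.

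Members, lists and tests were chosen with earlier results of these data known. Full statistics of the main test were given for tested probes above background in all 6 lanes. They were also given for the 3 largest fold changes each way among probes above background in at least 3 of the 6 lanes. Not every probe called lower in the blocked fits has its statistics given.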

Additional observations from a re-analysis of the deposited data

How the results depend on the processing

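The number of probes called for D5 over D4 was 0 in 22 of 33 settings, including each one that left out a lane of the 18-lane fit (range 0 to 0). It was 1 with only the 6 lanes (RPS9) and 1 with only the 4 lanes outside tag 1 (Piwi-1). It was 23 with the tag as a block and 2 with the replicate block on the deposited values. The replicate block made no other call. With the tag as a block it was 11 with positive controls only, 3 with EF1A_A alone, 32 with HCFC-1 alone, 5 with TMM, 6 with DESeq2's size factors, 2 with the target sum and 7 with the D5-5-12 lanes as 1 sample. These combinations were chosen after seeing the data.

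The log2 fold change of RPS9 was positive in 33 of 33 settings. Under the main scaling its lanes do not overlap between stages, so leaving out or merging lanes could not turn the sign. RPS9 passed at 1.16 with only the 6 lanes and at 1.07 with the tag as a block, and, with other scalings of that fit, at 0.61 (HCFC-1 alone), 1.48 (TMM), 1.82 (DESeq2's size factors) and 1.07 (sum). Leaving out 1 lane gave 1.03 to 1.43. The D5 minus D4 difference in the log2 ratio of RPS9 to EF1A_A was 1.12 to 1.78 with 1 lane left out, 2.37 within tag 1 and 0.92 within tag 5-12.

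The median over the 41 probes turned positive with EF1A_A alone (0.13), EF1A_A and EF1A_B (0.13), DESeq2's size factors (0.056, and 0.16 with the tag as a block) and limma on deposited values, with the replicate block or without (0.16). Leaving out 1 lane gave −0.54 to 0.94. The panel level turned positive with positive controls only (0.066), EF1A_A alone (0.21), EF1A_A and EF1A_B (0.21), DESeq2's size factors (0.16) and deposited values (0.18), and ranged from −0.90 to 0.90 with 1 lane left out. The value was 0.90 without D5-1 and 0.59 without D4-5-12.

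Of 361 values of 14 single probes other than RPS9, 47 changed sign, none of them for aspartate aminotransferase, the MAD2L1-binding protein or the Piwi probes. Under the main scaling the lanes of these probes do not overlap between stages, so leaving out or merging lanes could not turn their signs. comp292315 and comp293992 were 0.12 and 0.13 with EF1A_A alone and with EF1A_A and EF1A_B, and 0.13 and 0.14 with DESeq2's size factors (comp285297_12, 0.035). comp292169 and comp293931 were −0.14 and −0.11 with HCFC-1 alone, −0.17 and −0.046 with the sum, and −0.52 and −0.34 with the tag as a block. comp292169 was −0.054 with TMM and −0.13 with limma on scaled counts. On deposited values, in each of 3 fits, comp267762 was 0.022, comp285297_12 0.12, comp292315 0.24 and comp293992 0.21. With 1 lane left out, the ranges were −1.26 to 0.42 for comp249676, −0.67 to 0.43 for comp267762, −1.03 to 0.52 for comp274039, −0.81 to 0.93 for comp285297_12, −0.44 to 1.04 for comp292169 and −0.66 to 0.80 for comp292315. They were −0.99 to 0.50 for comp293109, −0.86 to 0.82 for comp293924, −0.41 to 1.15 for comp293931 and −0.66 to 1.12 for comp293992. The highest value of each came without D4-5-12. The cause was not tested. With 3 lanes a stage, the smallest exact two-sided p is 0.1, and probes near background have only a bound.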
